A study of Caenorhabditis elegans with 48 samples.

Results

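The comparison described here sets worms on RNAi against E02H1.1 beside worms on RNAi against C27F2.4. It uses every library of those groups, 4 of mRNA-seq and 4 of Ribo-seq in each, or 16 of the 48 libraries of the series, and all genes in the count tables. The series measured messenger RNA (polyadenylated RNA) and ribosome-protected footprints in the nematode Caenorhabditis elegans. The groups are E02H1.1 RNAi, C27F2.4 RNAi and, as the control that both knockdowns share, Empty_vector, with 4 libraries per assay. The labels give the knockdown and a source of young adult for every library, and no strain, temperature, feeding time or generation. They do not say that the replicates were separate cultures, so the p-values measure the spread between these libraries, which may be technical.

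In RNAi, double-stranded RNA leads to the breakdown of the transcript that matches it. The protein of E02H1.1 is homologous to the dimethyltransferase DIMT1, which modifies neighbouring adenosines near the 3′ end of the RNA of the small ribosomal subunit. That of C27F2.4 is homologous to the guanosine methyltransferase BUD23, which modifies the same RNA at another site. In yeast both enzymes also take part in making the small subunit, apart from the mark that they leave. Ribo-seq counts the fragments of mRNA that ribosomes shield, so a footprint level that moves apart from the mRNA level is read as a change in translational efficiency (TE).

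Library totals in mRNA-seq lay between 19238095 and 22359857 counts in E02H1.1 and between 19510370 and 20572817 in C27F2.4. In Ribo-seq they lay between 4230962 and 6394487 counts in E02H1.1 and between 7346895 and 11746420 in C27F2.4, so that the footprints of E02H1.1 were sequenced less deeply. Levels of single genes are in CPM, counts set to a common library total after TMM scaling. Sums over a gene list are in CPM of the library totals, without TMM scaling. Libraries are named by the letters A to D of their columns. The adult label was set against its markers: the yolk protein transcripts vit-1 to vit-6 summed to 2.76 to 4.16 CPM in E02H1.1 and 1.44 to 2.90 CPM in C27F2.4, and 68 sperm genes to 7.05 to 9.75 and 7.73 to 9.32 CPM. Against these low sums, 54 embryonic patterning factors held 3467 to 3624 CPM in E02H1.1 and 3551 to 3665 CPM in C27F2.4. The yolk protein and sperm transcripts were thus nearly absent from both groups. Not every listed marker was low, since 52 of 55 maternal, oocyte and eggshell genes passed the mRNA filter.

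C27F2.4 A stood apart from the rest of its group on the first principal component. On the first principal component of mRNA-seq, C27F2.4 A lay at -8.65, within the range of the E02H1.1 libraries (-15.04 to -7.87), and the other C27F2.4 libraries lay between -2.99 and 3.12. The same held in Ribo-seq, with C27F2.4 A at -10.8, E02H1.1 between -12.5 and -4.46, and the other C27F2.4 libraries between -1.71 and 2.78. Its targeted gene, at 33.96 CPM in mRNA, was the highest of its group (29.3 to 31.7 CPM in the others) and lay below every E02H1.1 library (52.4 to 59.2 CPM). Gene counts are therefore also given without C27F2.4 A, a choice made after its position was seen.

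**Figure D1:**
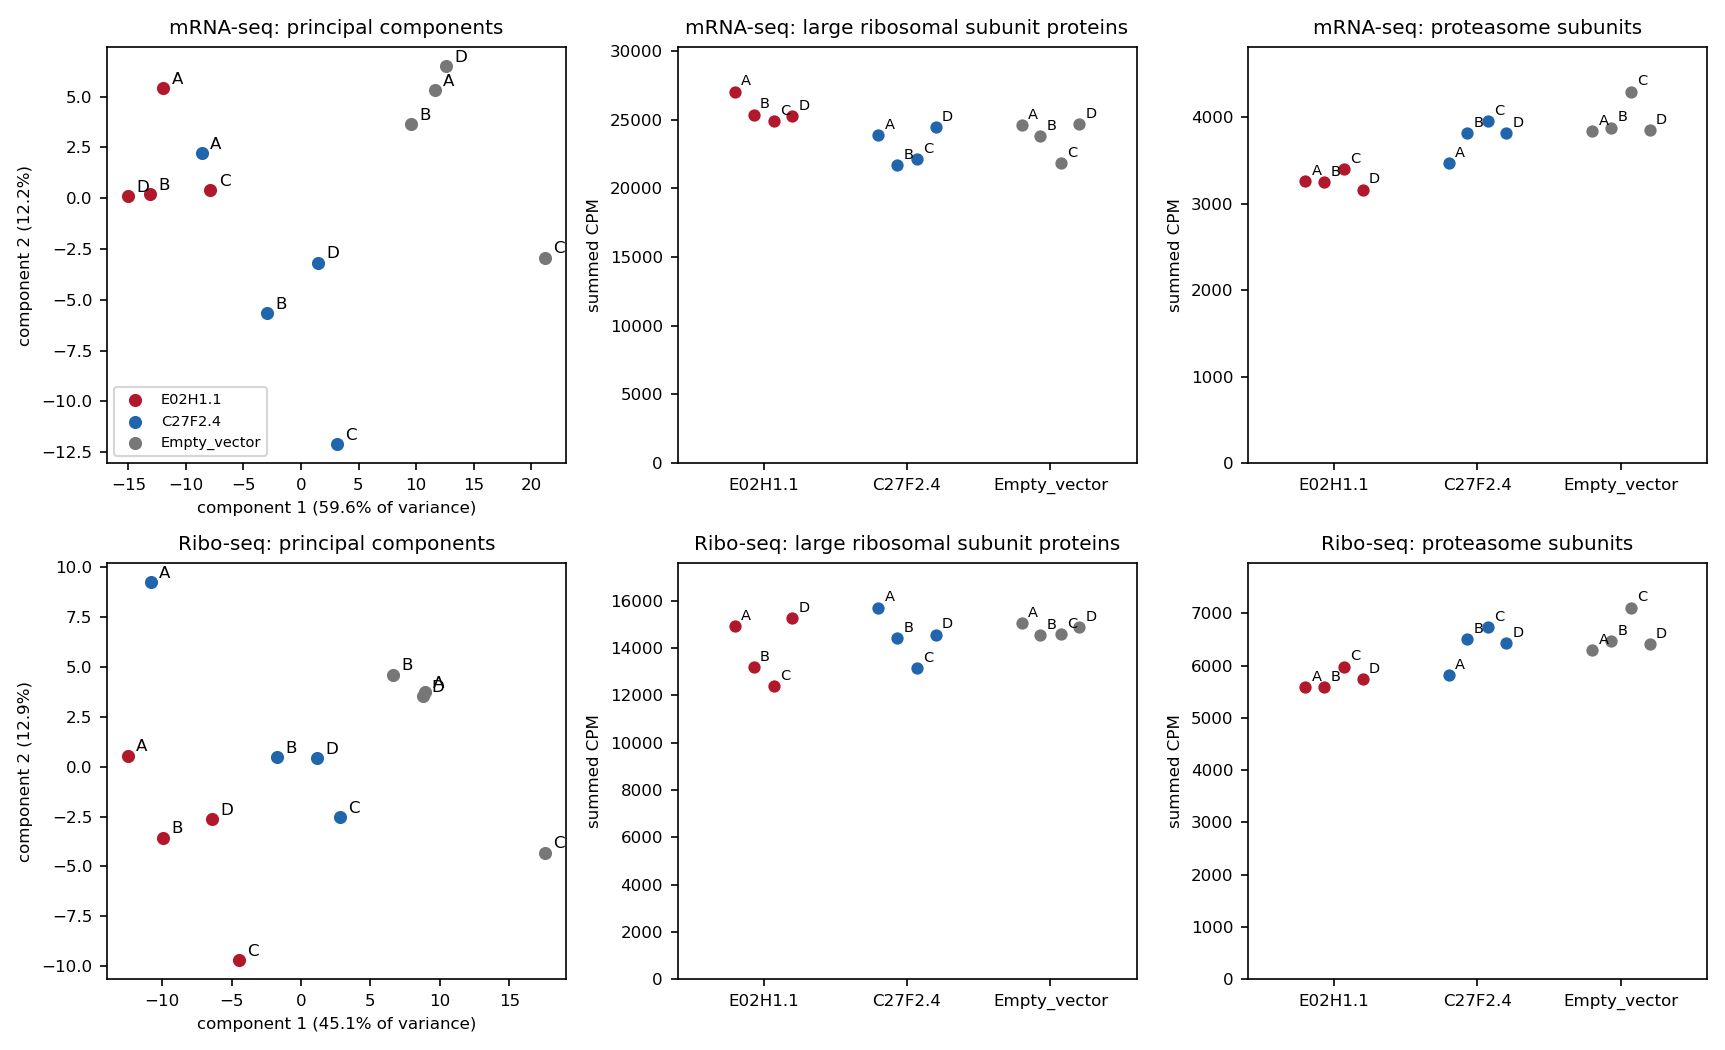
Left, each library on the first 2 principal components of log2 CPM in mRNA-seq (top) and Ribo-seq (bottom), with the letter of the library. Middle and right, the summed CPM of large ribosomal subunit proteins and of proteasome subunits in each library of E02H1.1, C27F2.4 and Empty_vector; C27F2.4 A lies with the E02H1.1 libraries on the first component in both assays.

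Each knockdown lowered its own transcript. E02H1.1 mRNA (WBGene00008455) stood at 19.7, 20.8, 16.95 and 18.996 CPM in E02H1.1 A to D, against 58.5, 66.5, 62.2 and 60.8 CPM in C27F2.4 A to D. The groups did not overlap, and the difference was -1.70 ± 0.07 on the log2 scale (E02H1.1 over C27F2.4, ± SE, adjusted p = 9.14e-16 by edgeR). Footprints of the gene were 10.2, 10.9, 8.73 and 15.03 CPM in E02H1.1, against 42.5, 45.2, 46.1 and 41.7 CPM in C27F2.4 (-1.93 ± 0.11, edgeR adjusted p = 3.76e-11). E02H1.1 D held the most footprints of the targeted gene within its group and still lay below every C27F2.4 library.

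C27F2.4 mRNA (WBGene00016166) stood at 52.5, 52.4, 59.2 and 55.0 CPM in E02H1.1, against 33.96, 29.3, 30.8 and 31.7 CPM in C27F2.4. The difference was 0.80 ± 0.07 (edgeR adjusted p = 7.65e-09), and the groups did not overlap. Its footprints stood at 65.7, 54.2, 64.4 and 64.2 CPM in E02H1.1, against 22.9, 20.8, 20.2 and 18.8 CPM in C27F2.4 (1.59 ± 0.08, edgeR adjusted p = 3.19e-12). The Empty_vector means were 67.8 ± 5.42 CPM for E02H1.1 mRNA and 62.1 ± 4.55 CPM for C27F2.4 mRNA (SD, n = 4 libraries each). Against those shared controls, E02H1.1 mRNA was at -1.83 in the E02H1.1 knockdown and -0.13 in the C27F2.4 knockdown (edgeR adjusted p = 1.18e-16 and 0.214), and C27F2.4 mRNA at -0.18 and -0.98 (adjusted p = 0.0317 and 1.32e-10). The knockdowns thus lowered their own mRNA by unequal amounts, and C27F2.4 mRNA was also slightly lower than the control in the E02H1.1 knockdown.

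**Figure D2:**
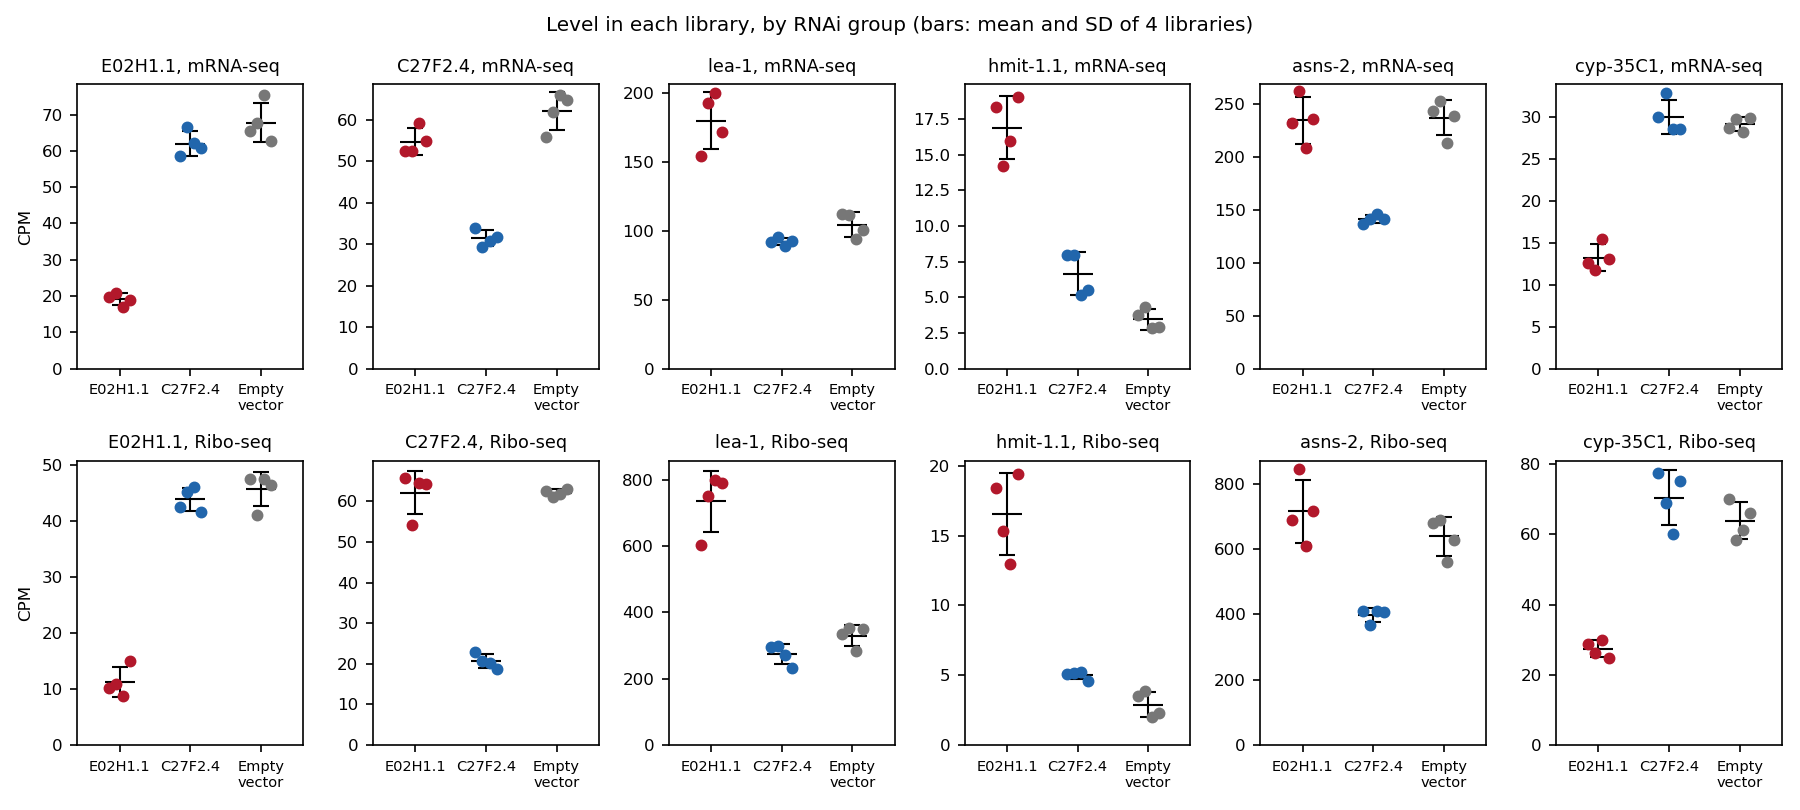
CPM of 6 genes in each library of E02H1.1 (left in each panel), C27F2.4 and Empty_vector, in mRNA-seq (top) and Ribo-seq (bottom); each axis starts at 0 and the bars give the mean and SD of 4 libraries. For all 6 genes, in both assays, no E02H1.1 library overlaps a C27F2.4 library; asns-2 in E02H1.1 and cyp-35C1 in C27F2.4 lie near the Empty_vector level.

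The mRNA comparison asks which transcripts differ between the knockdowns. Of 13637 genes tested, 445 passed the threshold of an adjusted p of 0.05 in edgeR's quasi-likelihood test, 3.26% of those tested. Of these, 222 were higher in E02H1.1 (1.63%) and 223 lower (1.64%). With counts scaled to library totals in place of TMM, 186 were higher and 291 lower. Differences were small: the median size among called genes was 0.28 on the log2 scale, and 51 higher and 16 lower genes reached 1.5-fold. The groups did not overlap for 369 of the called genes, against 11.4% of all genes tested. The number of calls rested on single libraries: it was 1713 without C27F2.4 A, 1085 without Empty_vector C, 123 without C27F2.4 B, 152 without C27F2.4 C, 135 without C27F2.4 D, 155 without E02H1.1 A, 84 without E02H1.1 B and 151 without E02H1.1 D.

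The highest fold change belonged to F08G2.5 (WBGene00008577), a gene with no assigned function here. Its mRNA stood at 34.8, 36.8, 34.01 and 34.8 CPM in E02H1.1, against 4.18, 4.75, 3.36 and 3.80 CPM in C27F2.4, and averaged 0.671 ± 0.239 CPM in Empty_vector (SD, n = 4). All 3 groups were separate, with E02H1.1 highest and Empty_vector lowest, and the knockdowns differed by 3.12 ± 0.13 (edgeR adjusted p = 6.1e-16). Its footprints were not analysed here. The same order was seen in M01G12.9 (WBGene00010822), at 38.6 ± 3.35 CPM in E02H1.1, 14.2 ± 0.573 CPM in C27F2.4 and 7.23 ± 0.968 CPM in Empty_vector (1.44 ± 0.10, edgeR adjusted p = 3.86e-11). M01G12.9 footprints averaged 25.6 ± 2.52 CPM in E02H1.1, 12.8 ± 2.04 CPM in C27F2.4 and 4.58 ± 0.923 CPM in Empty_vector, and rose as well (1.01 ± 0.12, edgeR adjusted p = 3.19e-05). Below the level of 10 CPM used for naming, and chosen after its values were seen, pgp-8, a P-glycoprotein of the ABC transporter family, stood at 9.96, 9.30, 8.17 and 7.60 CPM in E02H1.1, against 1.23, 1.21, 0.413 and 1.23 CPM in C27F2.4 (3.08 ± 0.30, edgeR adjusted p = 5.2e-07). It was the 1 called gene of 49 ABC transporters tested, against 1.63% of all genes called higher. Without C27F2.4 A, 3 of these transporters were higher and 4 lower, against 806 and 907 of all 13762 genes. Without Empty_vector C, 2 were higher and 3 lower, against 560 and 525 of all 13778 genes. The calls of F08G2.5, M01G12.9 and pgp-8 held on leaving out any 1 library.

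Genes of osmotic and desiccation protection followed. In worms, hmit-1.1 encodes a transporter of the osmolyte myo-inositol, and lea-1 a late embryogenesis abundant protein tied to tolerance of drying. hmit-1.1 mRNA (WBGene00013073) stood at 18.3, 14.2, 15.98 and 19.04 CPM in E02H1.1, against 7.98, 7.93, 5.16 and 5.53 CPM in C27F2.4 (1.34 ± 0.15, edgeR adjusted p = 3.02e-06). Its footprints stood at 18.4, 15.3, 12.98 and 19.4 CPM in E02H1.1, against 5.12, 5.16, 5.23 and 4.56 CPM in C27F2.4 (1.74 ± 0.16, edgeR adjusted p = 3.3e-07). Both knockdowns lay above Empty_vector, which averaged 3.44 ± 0.718 CPM in mRNA and 2.90 ± 0.904 CPM in footprints.

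lea-1 (WBGene00002263) differed from this order, since C27F2.4 lay near the control. Its mRNA stood at 154, 192, 200 and 171 CPM in E02H1.1, against 91.4, 95.3, 88.9 and 92.4 CPM in C27F2.4 (0.96 ± 0.07, edgeR adjusted p = 3.55e-09). Its footprints stood at 601, 749, 800 and 789 CPM in E02H1.1, against 296, 298, 270 and 233 CPM in C27F2.4 (1.42 ± 0.10, edgeR adjusted p = 1.29e-06). No E02H1.1 library overlapped a C27F2.4 library in either assay, and the lowest E02H1.1 library was A in both. Empty_vector averaged 104.3 ± 8.83 CPM in mRNA and 330 ± 31.8 CPM in footprints. Against those shared controls the E02H1.1 change was 0.78 ± 0.07 in mRNA and 1.16 ± 0.10 in footprints (edgeR adjusted p = 3.02e-08 and 2.87e-06), and that of C27F2.4 was -0.18 ± 0.07 and -0.27 ± 0.10 (adjusted p = 0.085 and 0.13). lea-1 overlaps acl-2 in the annotation, and the labels do not say that counting used the strand. Of 33 listed genes of osmotic protection and O-GlcNAc cycling tested in mRNA, lea-1 and hmit-1.1 were higher and none lower. Of all genes, 1.63% were called higher in mRNA. The list median was 0.06 against 0.01 over all genes. In footprints aqp-2, an aquaporin, was also higher (0.19, edgeR adjusted p = 0.036), making 3 of 31, against 0.615% of all genes. Without C27F2.4 A, 5 were higher and 1 lower in mRNA, against 806 and 907 of all 13762 genes.

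In asns-2, an asparagine synthetase, the difference came with a lower level in C27F2.4. Its mRNA (WBGene00019730) stood at 231, 262, 208 and 235 CPM in E02H1.1, against 136, 141, 145 and 141 CPM in C27F2.4 (0.73 ± 0.06, edgeR adjusted p = 3.55e-09). Its footprints stood at 689, 846, 611 and 716 CPM in E02H1.1, against 410, 368, 412 and 406 CPM in C27F2.4 (0.84 ± 0.08, edgeR adjusted p = 1e-05). The groups were separate in both assays and C27F2.4 showed little spread. Empty_vector averaged 237 ± 16.6 CPM in mRNA, so the E02H1.1 change against it was -0.02 ± 0.06 (edgeR adjusted p = 0.85) and the C27F2.4 change -0.75 ± 0.06 (adjusted p = 1.87e-09). The arginase gene argn-1, chosen after its values were seen, averaged 23.3 ± 1.395 CPM in the mRNA of E02H1.1, 15.1 ± 1.19 CPM in C27F2.4 and 26.2 ± 2.77 CPM in Empty_vector (SD, n = 4 each; 0.63 ± 0.10 between the knockdowns, edgeR adjusted p = 0.00037). Its footprints averaged 35.6 ± 3.03 CPM in E02H1.1, 25.6 ± 1.49 CPM in C27F2.4 and 44.8 ± 3.56 CPM in Empty_vector (0.48 ± 0.08, adjusted p = 0.0028). Over all genes tested in mRNA, 1.63% were called higher and 1.64% lower. Of 40 genes of amino acid and nucleotide metabolism tested in mRNA, asns-2 was the 1 higher member and rnr-2, gln-6 and rnr-1 were lower. The number lower was 6 without C27F2.4 A, against 907 of all 13762 genes. It was 1 without C27F2.4 B, C or D or E02H1.1 A, B or D. In footprints, gln-6, a glutamine synthetase, fell to 34.2 ± 4.63 CPM in E02H1.1, against 51.7 ± 1.84 CPM in C27F2.4 (-0.59 ± 0.10, edgeR adjusted p = 0.00198), and gmpr-1, a GMP reductase, to 180.1 ± 13.5 against 235 ± 12.5 CPM (-0.39 ± 0.07, adjusted p = 0.00245).

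Cytochrome P450 enzymes oxidise fatty acids and foreign compounds, and in both assays cyp-35C1 had the lowest fold change after E02H1.1 itself among the called genes of at least 10 CPM whose groups did not overlap. cyp-35C1 mRNA (WBGene00007362) stood at 12.6002, 11.7, 15.4 and 13.1 CPM in E02H1.1, against 29.97, 32.8, 28.6 and 28.6 CPM in C27F2.4 (-1.18 ± 0.09, edgeR adjusted p = 8.63e-10). Its footprints stood at 28.9, 26.3, 29.98 and 24.7 CPM in E02H1.1, against 77.5, 68.9, 60.1 and 75.3 CPM in C27F2.4 (-1.37 ± 0.09, edgeR adjusted p = 7.31e-10). The C27F2.4 level was near the control, with an Empty_vector mean of 29.1 ± 0.819 CPM in mRNA and 63.95 ± 5.22 CPM in footprints. In cyp-35A3, by contrast, C27F2.4 lay above the control: the mRNA averaged 3.65 ± 0.500 CPM in E02H1.1, 8.36 ± 1.25 CPM in C27F2.4 and 4.90 ± 0.770 CPM in Empty_vector (-1.19 ± 0.17 between the knockdowns, edgeR adjusted p = 0.000103). Its footprints averaged 7.57 ± 1.02 CPM in E02H1.1, 14.995 ± 2.53 CPM in C27F2.4 and 9.44 ± 1.79 CPM in Empty_vector (-0.99 ± 0.16, edgeR adjusted p = 0.00123). Of 51 P450 genes tested in mRNA, 5 were lower, against 1.64% of all genes, and none higher. The 5 were cyp-35A3, cyp-35C1, cyp-29A4 (-0.70), cyp-35A5 (-0.61) and cyp-29A2 (-0.32). In footprints 4 of 33 were lower, against 0.633% of all genes, and none higher. These were cyp-35C1, cyp-35A4 (-1.04), cyp-35A3 and cyp-13B1 (-0.36). The mRNA count was 3 without C27F2.4 B or E02H1.1 A, B or D, and the footprint count 2 without C27F2.4 D. Without C27F2.4 A, 1 gene was higher in each assay, against 806 of all 13762 genes in mRNA and 207 of 10738 in footprints. The footprint call of cyp-35A4 was lost without any 1 of 4 libraries. The list median was -0.05 in mRNA, and the cyp-35A genes are alike enough in sequence that reads may be shared between them.

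Other genes of detoxification moved both ways. Glucuronosyltransferases of the ugt family join sugars to small molecules. ugt-22 mRNA averaged 23.4 ± 1.90 CPM in E02H1.1, against 35.95 ± 2.41 CPM in C27F2.4 (-0.62 ± 0.09, edgeR adjusted p = 0.000209), and its footprints 32.7 ± 0.498 against 52.6 ± 6.72 CPM (-0.68 ± 0.10, adjusted p = 0.000334). ugt-24 mRNA was higher, at 13.1 ± 1.87 CPM in E02H1.1 and 6.36 ± 0.467 CPM in C27F2.4 (1.04 ± 0.14, edgeR adjusted p = 7.15e-05), and its footprints, at 5.21 ± 1.25 and 3.53 ± 0.825 CPM, did not pass the test (0.54 ± 0.21, adjusted p = 0.221). The flavin monooxygenase fmo-2 was higher in both assays (0.59 ± 0.12 in mRNA and 0.41 ± 0.09 in footprints), and the footprint call was lost without C27F2.4 B and without E02H1.1 B. Among genes under 10 CPM and chosen after their values were seen, gst-24, a glutathione S-transferase, averaged 4.45 ± 0.695 CPM in the mRNA of E02H1.1 and 1.48 ± 0.482 CPM in C27F2.4 (1.58 ± 0.25, edgeR adjusted p = 0.00077). Over the 124 listed detoxification and oxidative stress genes, 4 were higher and 4 lower in mRNA, against 1.63% and 1.64% of all genes. The list median was -0.02. The number lower was 7 without Empty_vector C, against 525 of all 13778 genes. It was 2 without C27F2.4 B or E02H1.1 A or D, and 1 without C27F2.4 C or D or E02H1.1 B.

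Genes of fatty acid desaturation and lipid handling were called in small number. fat-2, a desaturase that makes polyunsaturated fatty acids, averaged 8.44 ± 0.410 CPM in the mRNA of E02H1.1 and 12.65 ± 1.33 CPM in C27F2.4 (-0.58 ± 0.12, edgeR adjusted p = 0.00813). fat-6, a desaturase of stearate chosen after its values were seen, averaged 2.45 ± 0.731 CPM in the mRNA of E02H1.1 and 4.80 ± 0.803 CPM in C27F2.4 (-0.96 ± 0.20, adjusted p = 0.0101, which became 0.0502 without E02H1.1 B). In footprints fat-2 stood at -0.95 ± 0.18 and fat-6 at -1.02 ± 0.17 (edgeR adjusted p = 0.00461 and 0.00197). far-3, which encodes a protein that binds fatty acids and retinol, was higher at 23.8 ± 1.28 CPM in E02H1.1 and 15.4 ± 1.13 CPM in C27F2.4 (0.63 ± 0.10, adjusted p = 0.000642), and its footprints by 0.60 ± 0.08 (adjusted p = 0.000103). Of 96 genes of fatty acid synthesis, oxidation and lipid binding, 1 was higher and 5 lower in mRNA, against 1.63% and 1.64% of all genes. The number lower was 10 without C27F2.4 A and 8 without Empty_vector C, against 907 of all 13762 genes and 525 of 13778. It was 3 without E02H1.1 A, 2 without C27F2.4 B, C or D or E02H1.1 D, and 1 without E02H1.1 B.

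Other genes lay among the strongest mRNA differences. lips-6, a predicted lipase, averaged 14.6 ± 1.98 CPM in E02H1.1, 6.71 ± 0.600 CPM in C27F2.4 and 6.15 ± 2.96 CPM in Empty_vector (1.124 ± 0.26, edgeR adjusted p = 0.0377), and 10 of the 12 libraries, left out singly, ended its call. C48B4.9, C17F4.7, the F-box gene fbxc-32 and Y73C8C.8 were lower, at -0.55, -0.54, -0.54 and -0.50. Their footprint fold changes of -0.65, -0.12, 0.04 and -0.04 did not pass the test. fbxc-32 held 17.2 ± 0.878 CPM in the mRNA of E02H1.1 and 25.17 ± 2.28 CPM in C27F2.4, and 54.8 ± 6.68 and 53.6 ± 6.04 CPM in their footprints, so that the separation of the groups in mRNA was not seen in footprints.

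The footprint comparison asks which genes differ in ribosome-protected fragments. Of 10736 genes tested, 134 passed the threshold in edgeR's test, 1.25% of those tested, with 66 higher (0.615%) and 68 lower (0.633%) in E02H1.1. Of the called genes, 20 higher and 16 lower reached 1.5-fold, and for 131 the groups did not overlap, against 8.37% of all genes. The count was 413 without C27F2.4 A (3.85% of the genes tested there) and 273 without Empty_vector C (2.54%). It was 72 without C27F2.4 D, 83 without E02H1.1 A and 69 without E02H1.1 B.

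Among genes of at least 10 CPM other than the targets, and beside hmit-1.1, lea-1 and asns-2, the naming rule gave several genes with no role given here. Y119D3B.21 footprints stood at 59.9, 57.96, 58.5 and 58.7 CPM in E02H1.1, against 30.96, 28.3, 25.05 and 25.06 CPM in C27F2.4, and averaged 19.7 ± 2.44 CPM in Empty_vector. The 3 groups were separate and the E02H1.1 libraries almost equal (1.11 ± 0.08, edgeR adjusted p = 8.16e-09). In mRNA the same gene was higher by 1.16 ± 0.24 (adjusted p = 0.0319), a call lost on leaving out any 1 of 7 libraries. ZK1055.6 and ZK1055.7, neighbours on chromosome V, were higher together. ZK1055.6 footprints averaged 11.7 ± 2.00 CPM in E02H1.1 and 5.61 ± 0.617 CPM in C27F2.4 (1.05 ± 0.16, edgeR adjusted p = 0.000541), and ZK1055.7 footprints 43.3 ± 4.07 and 25.3 ± 1.38 CPM (0.77 ± 0.10, adjusted p = 6.91e-05). Their mRNA differences were 0.91 ± 0.16 and 0.59 ± 0.12 (adjusted p = 0.00158 and 0.00562). Of the lower genes, F41C3.2 footprints averaged 18.2 ± 0.750 CPM in E02H1.1, 28.8 ± 1.64 CPM in C27F2.4 and 18.8 ± 1.86 CPM in Empty_vector (-0.67 ± 0.09, edgeR adjusted p = 0.000185), so that C27F2.4 was the group away from the control. The carboxylesterase gene cest-33 averaged 76.7 ± 7.75 CPM in E02H1.1, 113.99 ± 7.76 CPM in C27F2.4 and 107.3 ± 7.82 CPM in Empty_vector (-0.57 ± 0.07, adjusted p = 3.76e-05), where E02H1.1 was the group away from it. C09B8.4 footprints fell below the control in both knockdowns, further in E02H1.1, at 12.08 ± 0.783 CPM in E02H1.1, 18.97 ± 3.75 CPM in C27F2.4 and 34.3 ± 1.61 CPM in Empty_vector (-0.67 ± 0.13 between the knockdowns, edgeR adjusted p = 0.00652). ugt-33 (-0.65) and pgph-2, a phosphoglycolate phosphatase homologue (-0.56), were lower as well, and Y54G2A.10 (0.98) and Y94H6A.10 (0.78) higher.

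Over the 10714 genes tested in both assays, 43 were called in both, and all 43 had the same direction. They made up 10.3% of the 416 mRNA calls and 32.1% of the 134 footprint calls of those genes. Pearson's r of the fold changes was 0.432 across genes, which are not independent replicates and share the library letters of each group. Of the 416 mRNA calls, 351 had a footprint fold change of the same sign, and of the 134 footprint calls, 122 had an mRNA fold change of the same sign. Among genes called in both that the naming rule leaves out, 2 were chosen after their values were seen. The cysteine dioxygenase gene cdo-1 averaged 16.22 ± 1.15 CPM in the mRNA of E02H1.1 and 10.04 ± 2.05 CPM in C27F2.4 (0.69 ± 0.12, edgeR adjusted p = 0.00316). zip-10, a bZIP transcription factor, averaged 4.13 ± 1.48 CPM in the footprints of E02H1.1 and 1.41 ± 0.513 CPM in C27F2.4 (1.56 ± 0.27, edgeR adjusted p = 0.0028). The mRNA call of zip-10 was lost without any 1 of 6 libraries (adjusted p up to 0.1145), and the footprint call of cdo-1 without C27F2.4 D, E02H1.1 A or E02H1.1 B (up to 0.0764).

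**Figure D3:**
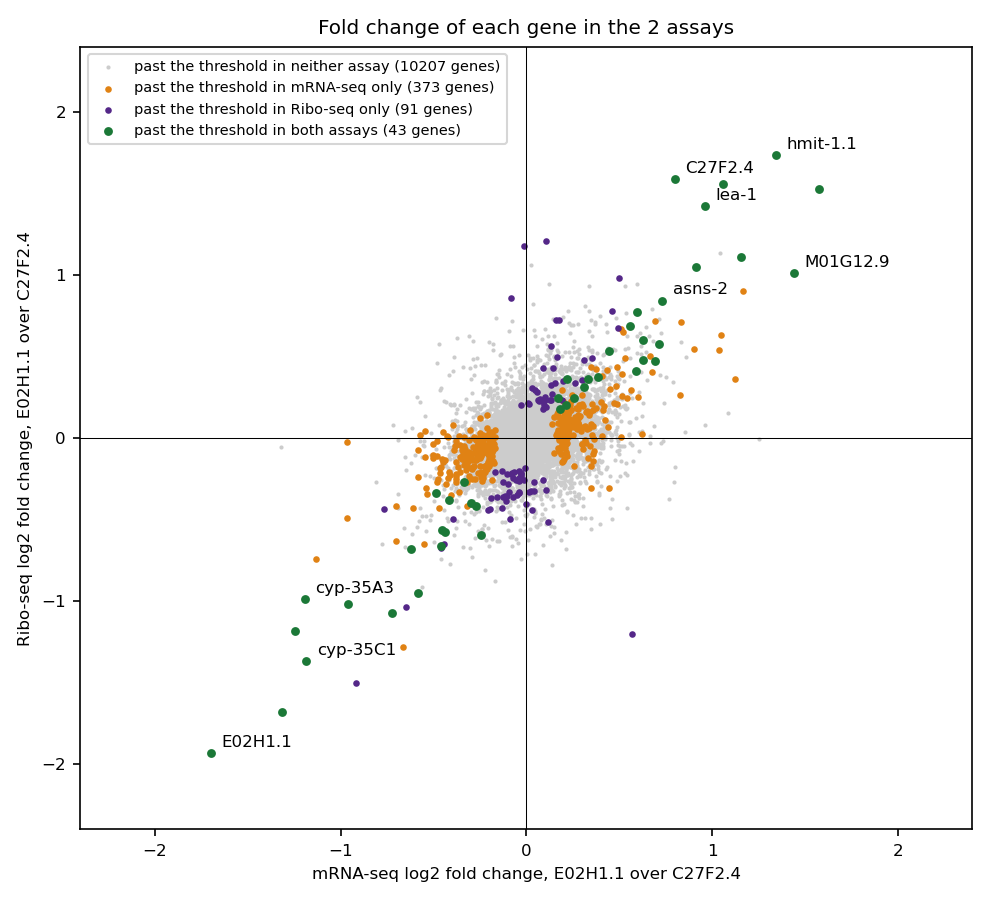
Each point is 1 of 10714 genes, with its log2 fold change of E02H1.1 over C27F2.4 in mRNA-seq (x axis) and Ribo-seq (y axis), coloured by the assays in which it passed the threshold. The 43 genes called in both lie at the lower left and upper right, from E02H1.1 (-1.70 and -1.93) to hmit-1.1 (1.34 and 1.74).

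Many of the small differences were in the proteasome, the complex that degrades ubiquitin-tagged proteins. Of 34 subunits tested in mRNA, 15 were lower in E02H1.1 and none higher, with a list median of -0.20 against 0.01 over all genes and a background of 1.64% of genes called lower. pas-5, a subunit of the core particle, stood at 77.6, 74.7, 80.2 and 72.01 CPM in E02H1.1, against 86.5, 97.5, 101 and 98.6 CPM in C27F2.4 (-0.33 ± 0.06, edgeR adjusted p = 0.00562). The groups did not overlap, and C27F2.4 A was the lowest of its group. rpn-12, of the regulatory lid, was at -0.32 (adjusted p = 0.021), rpt-4 and rpt-3, ATPases of the base, at -0.28 and -0.27 (adjusted p = 0.0075 and 0.013). Summed over all 34 subunits, mRNA stood at 3262, 3246, 3396 and 3162 CPM in E02H1.1, against 3464, 3818, 3953 and 3815 CPM in C27F2.4, with 3836 to 4295 CPM in Empty_vector. Every E02H1.1 sum lay below every C27F2.4 sum. In footprints 3 of 33 subunits were lower (pas-5, rpt-1 and rpn-1), against 0.633% of all genes, and none higher, with a median of -0.16. For pas-5 footprints C27F2.4 A at 112.2 CPM lay within the E02H1.1 range. Without C27F2.4 A, 28 subunits were lower in mRNA and 16 in footprints, against 907 of all 13762 and 206 of all 10738 genes. Without Empty_vector C the numbers were 21 and 8, against 525 of all 13778 and 128 of all 10738 genes. In mRNA 5 were lower without C27F2.4 C or E02H1.1 A, 4 without C27F2.4 B or E02H1.1 D, and 3 without C27F2.4 D or E02H1.1 B. In footprints none was called without any 1 of the 9 libraries other than C27F2.4 A, Empty_vector A and Empty_vector C. In RNA from whole worms, fewer cells of a type and less RNA per cell cannot be told apart.

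Genes of DNA replication and the mitotic cell cycle were lower in mRNA in the same manner. Of 72 tested, 16 were lower and none higher, against 1.64% of all genes called lower, with a median of -0.16. The helicase subunit mcm-6 stood at 142, 137, 149 and 126.4 CPM in E02H1.1, against 160.5, 174, 184 and 180.2 CPM in C27F2.4, and the groups did not overlap (-0.33 ± 0.06, edgeR adjusted p = 0.00317). mcm-2, mcm-3, mcm-5 and mcm-7, of the same helicase, were at -0.26, -0.23, -0.24 and -0.24, and the sliding clamp pcn-1 at -0.24. The small subunit of ribonucleotide reductase, rnr-2, of the nucleotide list, averaged 489.9 ± 28.8 CPM in E02H1.1 and 601 ± 52.01 CPM in C27F2.4 (-0.30 ± 0.06, edgeR adjusted p = 0.00643). In footprints none of the 72 was called by edgeR or DESeq2, 7 were lower at an unadjusted p under 0.05 and 3 with voom, and the median was -0.06; mcm-6 footprints averaged 489 ± 20.1 CPM in E02H1.1 and 533 ± 44.7 CPM in C27F2.4 (-0.13 ± 0.06, adjusted p = 0.366). Without C27F2.4 A, 51 of the 72 were lower in mRNA and 3 in footprints, against 907 of all 13762 and 206 of all 10738 genes. The mRNA count was 26 without Empty_vector C, against 525 of all 13778 genes. It was 3 without C27F2.4 B, C or D or E02H1.1 A, 2 without E02H1.1 B and 1 without E02H1.1 D. The summed mRNA of the list was 12456 CPM in C27F2.4 A, against 13876 to 14273 CPM in the rest of C27F2.4 and 11871 to 12643 CPM in E02H1.1.

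Some germline and early embryonic transcripts were called. Over all genes tested in mRNA, 1.63% were called higher and 1.64% lower. Of 52 maternal, oocyte and eggshell genes tested in mRNA, puf-11 (-0.41) and gld-3 (-0.29), both regulators of germline mRNAs, were lower and par-1 (0.20), a polarity kinase, higher, with a list median of -0.18. Of 27 germ granule genes, meg-2 (-0.48), pid-2 (-0.41) and pgl-1 (-0.29) were lower and none higher, with a median of -0.14. Without C27F2.4 A, 19 maternal and 9 germ granule genes were lower, against 907 of all 13762 genes. No maternal gene was lower without any 1 of C27F2.4 B, C or D, E02H1.1 A, B or D, or Empty_vector A or B, and 1 was without Empty_vector D. Of the germ granule genes, 5 were lower without Empty_vector C, against 525 of all 13778 genes. None was lower without C27F2.4 C or E02H1.1 D, and 1 was without C27F2.4 B or D or E02H1.1 A or B. In footprints none of 39 maternal and none of 26 germ granule genes was called by edgeR; at an unadjusted p under 0.05, 9 and 6 were lower, with DESeq2 1 and 0, and with voom 5 and 2. Of 54 embryonic patterning factors tested in mRNA, 4 were lower and 2, the transcription factors skn-1 (0.20) and tbx-2 (0.17), higher, with a median of -0.11. The number lower was 8 without C27F2.4 A, 1 without C27F2.4 C or D, and 0 without C27F2.4 B or E02H1.1 A, B or D. None of the 26 replication-dependent histone genes was called in mRNA by edgeR, 5 were lower at an unadjusted p under 0.05 and 1 with DESeq2 or voom, and their median was -0.35.

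Neuronal, muscle and cuticle lists had positive medians in mRNA and few calls, to be read against the 1.63% of all genes called higher. Of 46 synaptic and neurotransmitter genes, ida-1, a dense-core vesicle protein (0.29, edgeR adjusted p = 0.017), egl-19, a calcium channel (0.26, adjusted p = 0.045), and slo-1, a potassium channel (0.22, adjusted p = 0.049), were higher and none lower, with a list median of 0.21. Of 109 neuropeptide and insulin-like genes, flp-7 (0.87), nlp-48 (0.83) and nlp-21 (0.63) were higher and none lower, with a median of 0.26. Of 44 sarcomere and attachment genes, tni-3, a troponin I (0.45), and unc-54, the major myosin heavy chain of body wall muscle (0.19), were higher and act-2, an actin whose sequence is close to other actins (-0.19), lower, with a median of 0.12. Of 108 cuticle collagens, col-10, col-14 and col-48 were higher (0.35, 0.36 and 0.35) and none lower, with a median of 0.21. col-10 held 72.4 ± 2.79 CPM in the mRNA of E02H1.1, 56.9 ± 4.12 CPM in C27F2.4 and 28.1 ± 2.82 CPM in Empty_vector, so both knockdowns lay above the control, and E02H1.1 further (0.35 ± 0.07 between the knockdowns, edgeR adjusted p = 0.00615). In footprints the median was 0.03 for the synaptic list and 0.04 for the neuropeptide list, with no call by edgeR or DESeq2 (unadjusted p under 0.05 for 6 of 41 and 4 of 55, and 2 calls each with voom). Footprints of the sarcomere list had a median of 0.08 with pat-10 higher, and those of the collagens -0.03 with dpy-7 and dpy-10 higher. Over all genes, 0.615% were called higher in footprints. Without C27F2.4 A, 15 synaptic, 14 neuropeptide, 13 sarcomere and 17 collagen genes were higher in mRNA, and without Empty_vector C 8, 4, 10 and 10. Calls rose over all genes too, with 806 of 13762 higher without C27F2.4 A and 560 of 13778 without Empty_vector C. Without any 1 of C27F2.4 B, C27F2.4 C, C27F2.4 D or E02H1.1 B, no synaptic, neuropeptide or sarcomere gene was higher, and 1 collagen gene was. Without E02H1.1 A or E02H1.1 D no synaptic or sarcomere gene was higher, with 1 or 0 neuropeptide genes and 1 or 2 collagens in that order. Synaptic counts were 6 without E02H1.1 C and 1 without Empty_vector A, collagen counts 6 without E02H1.1 C, 7 without Empty_vector B and 1 without Empty_vector A or D, and the sarcomere count 1 without Empty_vector A or D. The calls of egl-19, tni-3 and col-14 were each lost in 8 of the 12 fits that leave out 1 library, and those of ida-1, unc-54 and act-2 in 6, while col-10 kept its call in all 12. In footprints, 10 sarcomere genes were higher without C27F2.4 A, against 207 of all 10738 genes. The footprint call of pat-10 was lost without any 1 of 8 libraries, and no collagen was called in footprints without any 1 of 7. C27F2.4 A moved with these lists: its summed synaptic mRNA was 2617 CPM, against 2263 to 2414 CPM in the other C27F2.4 libraries and 2449 to 2728 CPM in E02H1.1, and its summed collagen mRNA 15567 CPM, against 13573 to 14131 and 15507 to 16117 CPM. The part of the first component, or of stage, in these differences was not tested.

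**Figure D4:**
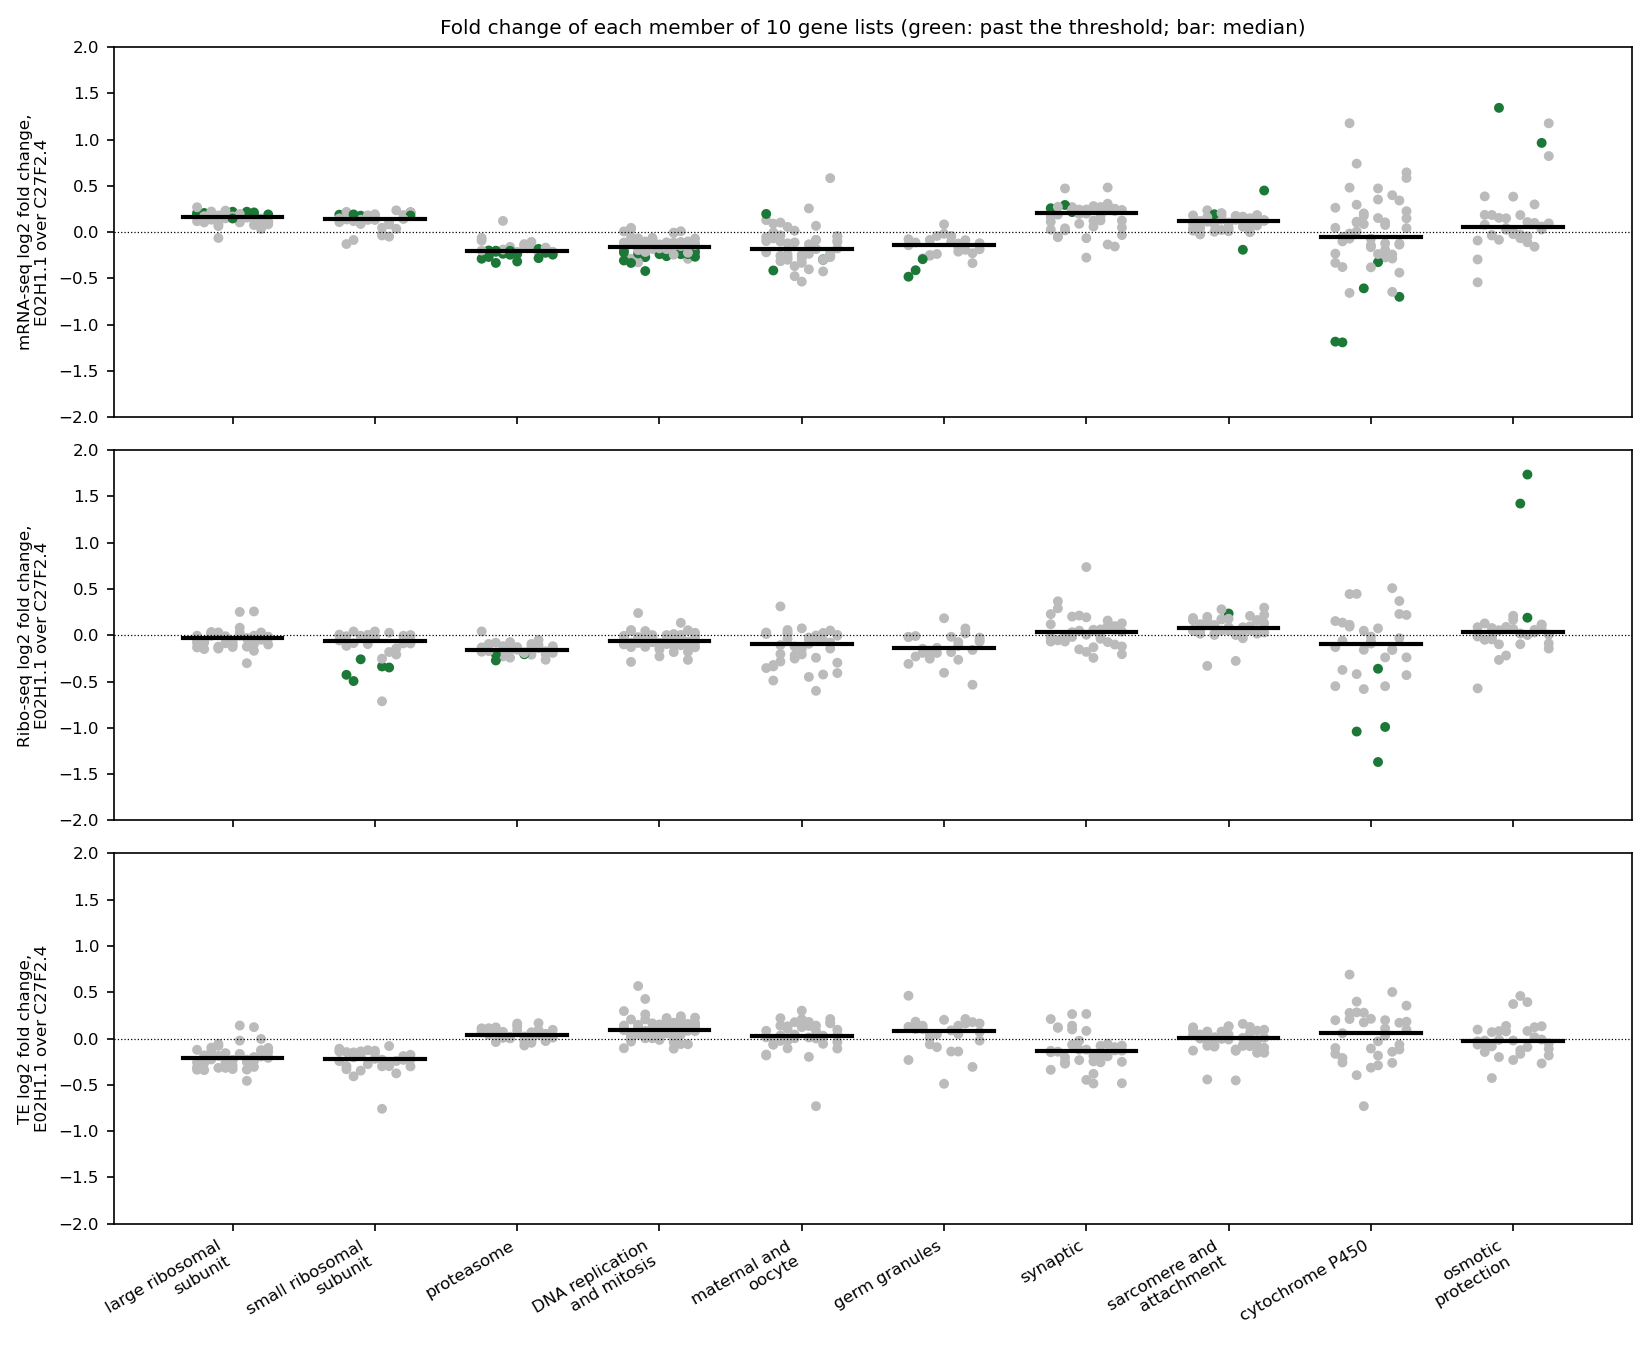
Log2 fold change of E02H1.1 over C27F2.4 of each tested member of 10 gene lists in mRNA-seq (top), Ribo-seq (middle) and TE (bottom); green points passed the threshold, grey points did not, and the black bar is the list's median. Ribosomal proteins lie above 0 in mRNA (medians 0.17 and 0.14) and below 0 in TE (-0.21 and -0.22), and the proteasome lies below 0 in both mRNA and footprints (-0.20 and -0.16).

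Ribosomal protein genes differed between the assays. In mRNA, 13 of 43 large subunit proteins and 5 of 31 small subunit proteins were higher in E02H1.1 and none lower, with medians of 0.17 and 0.14 against a background of 1.63% called higher. rps-11 mRNA stood at 748, 763, 724 and 748 CPM in E02H1.1, against 644, 635, 664 and 631 CPM in C27F2.4, and the groups did not overlap (0.21 ± 0.04, edgeR adjusted p = 0.00562). Empty_vector averaged 623 ± 33.2 CPM. Summed over the large subunit, mRNA stood at 27044, 25364, 24878 and 25272 CPM in E02H1.1, against 23875, 21689, 22153 and 24453 CPM in C27F2.4, with Empty_vector at 21819 to 24666 CPM. Every E02H1.1 sum lay above every C27F2.4 and every Empty_vector sum. The numbers called higher in the large and the small subunit were 20 and 12 without Empty_vector C and 17 and 11 without C27F2.4 A. Over all genes, 560 of 13778 and 806 of 13762 were higher in these fits. The ribosomal protein numbers were 1 and 1 without C27F2.4 B, 2 and 1 without E02H1.1 B, 6 and 3 without C27F2.4 C, 6 and 2 without E02H1.1 A, and 8 and 2 without E02H1.1 D.

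In footprints no large subunit protein was called by edgeR, 1 was lower with DESeq2 and 1 with voom, and 6 were lower at an unadjusted p under 0.05. Of the 31 small subunit proteins, 5 were lower, against 0.633% of all genes, and none higher. The 5 were rps-13 (-0.49), ubl-1 (-0.43), rps-2 (-0.35), rps-22 (-0.34) and rps-4 (-0.26). The list median was -0.06, with 25 members below 0 and 6 above. rps-13 footprints stood at 206, 176, 157 and 205 CPM in E02H1.1, against 292, 253, 235 and 271 CPM in C27F2.4 (-0.49 ± 0.07, edgeR adjusted p = 0.000514). Every E02H1.1 library lay below every C27F2.4 library, and both groups lay below Empty_vector, which averaged 325 ± 2.93 CPM. ubl-1, a fusion of a ubiquitin-like protein with a small subunit protein, stood at 203, 172, 171 and 205 CPM in E02H1.1, against 279, 270.4, 217 and 245 CPM in C27F2.4 (-0.43 ± 0.07, edgeR adjusted p = 0.00207). Their mRNA did not pass the test, at -0.09 ± 0.05 for rps-13 and -0.13 ± 0.05 for ubl-1 (adjusted p = 0.299 and 0.107). Against the shared controls, rps-13 footprints were at -0.80 ± 0.07 in E02H1.1 and -0.31 ± 0.07 in C27F2.4 (edgeR adjusted p = 1.75e-07 and 0.00893). The calls for rps-13 and ubl-1 held on leaving out any 1 library, and the count of small subunit proteins called lower was 2 without E02H1.1 B and 4 to 6 without any other 1. rps-12 had the lowest footprint fold change of the list, at -0.71, and was not called.

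The TE comparison asks which genes differ in footprints beyond what their mRNA shows. In the interaction model of edgeR, 5 of 10714 genes passed the threshold, 0.0467% of those tested, with 1 higher (0.00933%) and 4 lower (0.0373%) in E02H1.1. The groups did not overlap in log2 TE for the 5 genes, against 8.26% of all genes. An unadjusted p under 0.05 was reached by 943 genes. The deposited TE table pairs same-letter columns of the assays, and with each pair treated as 1 culture the count was 260 genes, 129 higher and 131 lower; DESeq2 without pairs gave 46. The unpaired count was 20 without Empty_vector C. It was 2 without C27F2.4 A, C27F2.4 B, C27F2.4 D or Empty_vector B, and 1 without E02H1.1 B or E02H1.1 C.

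The 1 gene higher was C27F2.4. Its log2 TE, the log2 of footprint CPM + 1 less that of mRNA CPM + 1, stood at 0.32, 0.05, 0.12 and 0.22 in E02H1.1, against -0.55, -0.48, -0.58 and -0.72 in C27F2.4 (0.79 ± 0.10, edgeR adjusted p = 0.00012). The groups were separate and Empty_vector averaged 0.00 ± 0.11, so in its own knockdown the gene had fewer footprints for its mRNA level than in the control. For the other target, log2 TE stood at -0.88, -0.88, -0.88 and -0.32 in E02H1.1, against -0.45, -0.54, -0.42 and -0.53 in C27F2.4, and the difference of -0.24 ± 0.14 did not pass the test (edgeR adjusted p = 0.626). E02H1.1 D stood apart from its group, above every C27F2.4 library.

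Of the 4 genes with lower TE, C32F10.4 (WBGene00016332) stood at -0.94, -1.15, -1.22 and -0.9998 in E02H1.1, against -0.33, -0.29, -0.22 and -0.50 in C27F2.4 (-0.75 ± 0.12, edgeR adjusted p = 0.00507). Its mRNA was higher in E02H1.1 (46.3 ± 1.121 against 33.98 ± 2.78 CPM, 0.44 ± 0.08, adjusted p = 0.00322) and its footprints, at 21.5 ± 2.07 against 26.7 ± 2.101 CPM, did not pass the test (-0.30 ± 0.09, adjusted p = 0.0989). It overlaps lin-35 in the annotation. In T01G1.4 (-0.43 ± 0.08), skr-21, a Skp1-related gene (-0.36 ± 0.07), and ztf-7, a zinc finger gene (-0.34 ± 0.07), the adjusted p was 0.0296 each. Their mRNA did not pass the test (edgeR adjusted p = 0.229, 0.73 and 0.874 in that order), with ztf-7 mRNA at 650.1 ± 4.06 CPM in E02H1.1 and 644 ± 16.22 CPM in C27F2.4. Their footprints were lower, with ztf-7 at 175 ± 13.9 CPM in E02H1.1 and 221 ± 10.1 CPM in C27F2.4 (-0.33 ± 0.06, edgeR adjusted p = 0.00207). Empty_vector held ztf-7 footprints of 274 ± 12.7 CPM, above both knockdowns. Each of these 4 TE calls was lost on leaving out at least 1 library: C32F10.4 without E02H1.1 B or E02H1.1 C (adjusted p up to 0.0947), T01G1.4 without any 1 of 8 libraries, and skr-21 and ztf-7 without any 1 of 6.

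**Figure D5:**
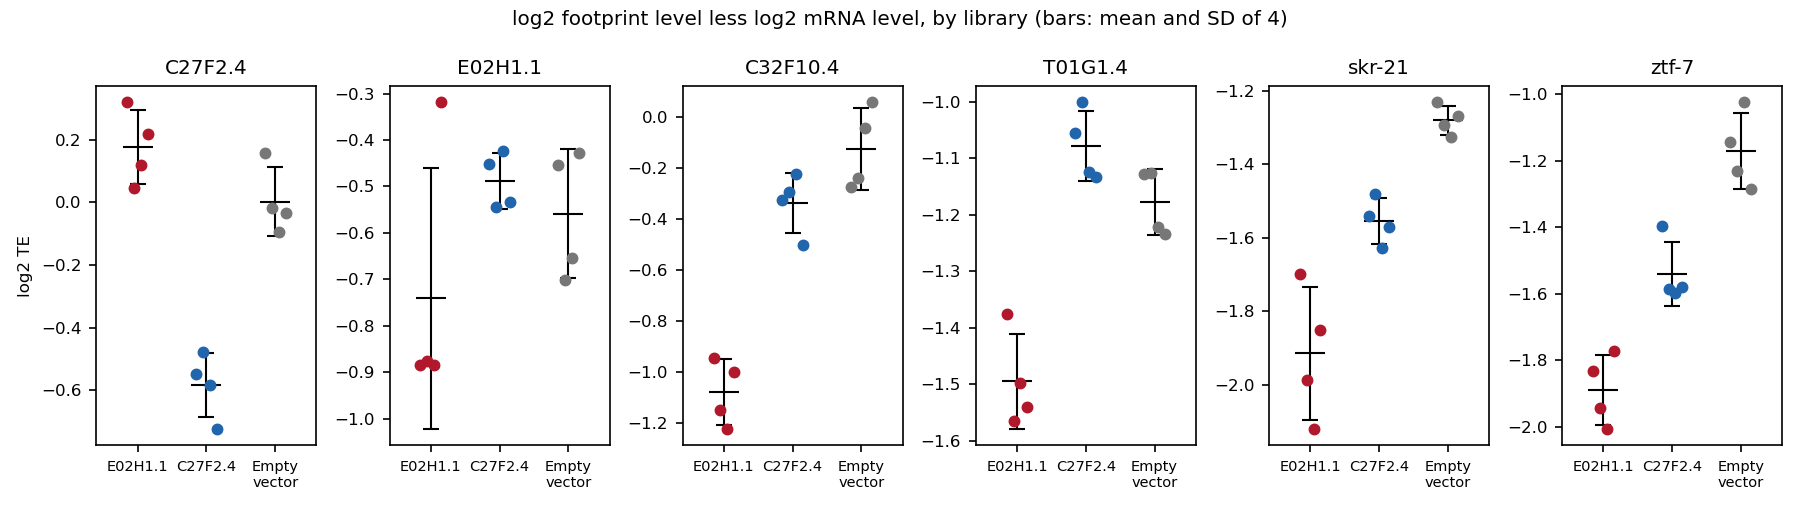
Log2 TE of the 5 called genes and of E02H1.1 in each library of E02H1.1 (left in each panel), C27F2.4 and Empty_vector, with the mean and SD of 4 libraries; the axes do not start at 0. The 5 called genes show no overlap between E02H1.1 and C27F2.4, and E02H1.1 D (-0.32) lies apart from the other E02H1.1 libraries (-0.88) for E02H1.1 itself.

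In the unpaired fit of edgeR no ribosomal protein was called in TE, and 41 of 43 large subunit members and all 31 small subunit members were below 0, with medians of -0.21 and -0.22 against 0.01 over all genes. Unpaired DESeq2 called 5 large and 3 small subunit members lower, and voom 3 and 3. With edgeR, 2 large subunit members were called lower without Empty_vector C and 1 without E02H1.1 D. These fits called 0.187% and 0.0560% of all genes, in either direction. With each pair of libraries as 1 culture, 11 of the large and 8 of the small subunit members were called lower, and none higher, with 2.43% of all genes called in either direction. In that fit 6 of 54 genes of the vacuolar proton pump and lysosomal hydrolases were lower, among them the aspartyl proteases asp-1 (-0.63) and asp-6 (-0.74). Several cuticle collagens were lower there too, among them col-10 (-0.64), col-14 (-0.50) and col-48 (-0.39), which were higher in mRNA. In the unpaired fit of edgeR 36 collagens were below 0 and 14 above, with a median of -0.25 and no call. Replication genes were at a median of 0.10, with 6 of 72 called higher in the paired fit and none in the unpaired fits of edgeR, DESeq2 and voom, where 9 were higher at an unadjusted p under 0.05 in edgeR.

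Stress and metabolic lists gave small numbers of calls. In mRNA 1.63% of all genes were called higher and 1.64% lower, and in footprints 0.615% and 0.633%. Of 37 cytosolic chaperones tested in mRNA, dnj-13, a DNAJ cochaperone, hsp-1, the constitutive HSP70, and hsp-90 were higher (0.34, 0.18 and 0.16) and none lower. The chaperone list as a whole was not raised, with a median of -0.02, 15 members above 0 and 22 below. The number higher was 5 without C27F2.4 A or Empty_vector C, against 806 of all 13762 genes and 560 of 13778. It was 1 without E02H1.1 B. dnj-13 mRNA stood at 357, 419, 409 and 350 CPM in E02H1.1, against 306, 326, 303 and 282 CPM in C27F2.4, with Empty_vector at 252 ± 9.74 CPM (0.34 ± 0.05, edgeR adjusted p = 0.00116). The 3 groups were separate, and dnj-13 footprints were higher as well (0.37 ± 0.06, adjusted p = 0.00164). Of 29 genes of the unfolded protein responses, hsp-4, the BiP chaperone of the endoplasmic reticulum (-0.27), and ckb-2, a choline kinase (-0.53), were lower in mRNA, and ckb-2 lost its call without C27F2.4 B or E02H1.1 B. Of 48 genes of glycolysis, gluconeogenesis and the TCA cycle, aldo-1, an aldolase, was higher in both assays (0.31 in each). pck-1 was higher in mRNA (0.25), and ldh-1 and mdh-1 in footprints (0.23 each). The glyceraldehyde 3-phosphate dehydrogenase genes gpd-3 (0.17) and gpd-4 (-0.36) were called in opposite directions in mRNA. Of these mRNA calls, the number higher was 0 without C27F2.4 C or E02H1.1 A, B or D and 1 without C27F2.4 D, and 2 genes were higher in footprints without C27F2.4 C or D or E02H1.1 A. In propionate breakdown and one-carbon metabolism, hphd-1, a dehydrogenase of the propionate shunt, was lower in mRNA (28.6 ± 2.27 CPM in E02H1.1 and 40.1 ± 4.76 CPM in C27F2.4, -0.49 ± 0.09, edgeR adjusted p = 0.00233), and mthf-1, the methylenetetrahydrofolate reductase, in footprints (204 ± 5.67 and 257 ± 11.2 CPM, -0.33 ± 0.05, adjusted p = 0.000541).

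Calls in the machinery nearest to the targeted enzymes are to be read against all genes. In mRNA 1.63% of these were called higher and 1.64% lower, and in footprints 0.615% and 0.633%. In TE 0.0467% were called in either direction. Of 56 genes of ribosome biogenesis, rRNA modification and the RNA exosome, the called ones in mRNA were E02H1.1, C27F2.4 and ruvb-1 (-0.18), an ATPase of many complexes, and in footprints the 2 targets alone. Without C27F2.4 A, 7 were lower in mRNA, against 907 of all 13762 genes. ruvb-1 kept its call only without C27F2.4 A or Empty_vector C. None of 70 mitochondrial ribosomal proteins was called in mRNA, footprints or TE by edgeR or DESeq2, though 4, 10 and 8 had an unadjusted p under 0.05 and voom called 1, 1 and 0; their medians were -0.02, 0.03 and 0.08. Of 48 initiation and elongation factors, iff-1 (-0.26) and eif-3.L (-0.19) were lower in mRNA, and of 47 tested in footprints eif-2A was lower at 66.1 ± 2.29 CPM in E02H1.1 and 84.7 ± 3.35 CPM in C27F2.4 (-0.36 ± 0.07, edgeR adjusted p = 0.0098), a call lost without E02H1.1 B. In mRNA 8 factors were lower without C27F2.4 A, where 907 of all 13762 genes were. Without C27F2.4 B, C or D 1 was lower, and without E02H1.1 B or D none. Empty_vector held eif-2A footprints of 111.7 ± 13.2 CPM, above both knockdowns.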

How the data were processed

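The deposited tables held raw read counts per gene, as whole numbers. The authors' deposited TE values are on a log2 scale and equalled the footprint count + 1 over the mRNA count + 1 of like-named columns, within 1e-09. cutadapt is named in the submitters' processing notes, without a version; for the aligner, counter, build and annotation nothing is given in the sources used here. Of 19454 identifiers, 19414 had a symbol in the gene name table; no row lacked a gene. Columns are lettered, labels numbered, so libraries go by letter.

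The counts of 12 libraries per assay (both knockdowns and Empty_vector) went into edgeR 4.0.16 (R 4.3.3), with filterByExpr, TMM, robust quasi-likelihood, two-sided tests, Benjamini-Hochberg over all genes, threshold 0.05. Fold changes are E02H1.1 over C27F2.4 on the log2 scale and count as relative within a library. SE came from the F statistic. TE was the assay by group interaction over 24 libraries. Scripts were tested on simulated data. Alternatives used DESeq2 1.42.0, limma 3.58.1 voom, other scalings and filters, thinning, blocks and leaving out each library.

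The comparison, its members and all 45 gene lists were chosen with earlier results of these data known. Genes named are the targets; per assay the 10 highest and 10 lowest called fold changes with separate groups and a mean of 10 CPM or more in a group, no symbol stem more than 2 times; and the 2 strongest called members of each list in each direction at that level. Further members named beside a list's count, and names marked so, were picked after seeing their values. That like-lettered columns of the assays are 1 culture rests on the design text, which calls the assays matched, and on the deposited TE table; deviations of these pairs correlated from -0.02 to 0.65.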

Additional observations from a re-analysis of the deposited data

Results flagged for a closer look

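Within groups of 4 libraries, 1 value lay far from the others by Dixon's test for 18 of the 320 groups of named genes looked at; chance gives about 1 in 20. In mRNA-seq, C27F2.4 A was the lone library for clec-87 at 394 CPM (nearest 450 CPM), hsp-4 at 322 CPM (nearest 343 CPM), mel-32 at 166 CPM (nearest 185 CPM) and egl-19 at 191 CPM (nearest 177 CPM). In Ribo-seq it was so for pas-5 at 112.2 CPM (nearest 137 CPM). In each of these the lone value of C27F2.4 A lay on the side of the E02H1.1 libraries.

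E02H1.1 B stood alone in footprints of C27F2.4 at 54.2 CPM and of far-3 at 70.5 CPM, and E02H1.1 C in mRNA of itr-1 at 67.7 CPM and of rpl-4 at 1284 CPM and in footprints of ucr-2.3 at 72.5 CPM. E02H1.1 D did so in mRNA of rnr-2 at 447 CPM and in footprints of dpy-7 at 218 CPM. C27F2.4 B stood alone in mRNA of rpl-25.1 at 260.1 CPM and of ugt-8 at 1.36 CPM, and in footprints of asns-2 at 368 CPM and of zip-10 at 2.17 CPM. C27F2.4 C did so in mRNA of pgp-8 at 0.413 CPM and C27F2.4 D in footprints of hmit-1.1 at 4.56 CPM.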

How the results depend on the processing

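Of 166 gene results named by rule or added, no alternative reversed a direction. Apart from the targets, these were picked for passing the threshold in the same data. A reversal was thus unlikely from the start, and its absence is no support for them. For the 165 that were called, 2865 recomputed values kept the call and 570 lost it (6 without an adjusted p from DESeq2 are left out), and 69 results kept the call on leaving out any 1 of the 12 libraries. Counts of called genes moved more. In mRNA (445 in the reported fit) they were 908 with DESeq2's Wald test, 699 with the 2 groups alone, 1523 with voom and quality weights, and 84 to 1713 on leaving out 1 library. In footprints (134) they were 569 with voom and 69 to 413 on leaving out 1 library. For TE (5) they were 46 with DESeq2's Wald test, 20 with voom, 2 with counts thinned to the smallest library, and 1 to 20 on leaving out 1 library. Other scalings, filters and thinning stayed within 1.5 times, except as given. With a replicate block, same-letter libraries of the knockdowns were treated as pairs, giving 1446 calls in mRNA and 430 in footprints. The labels do not say whether same-letter libraries of the knockdowns belong together. Deviations of same-letter pairs correlated from -0.21 to 0.31 in mRNA and from -0.16 to 0.40 in footprints. Different-letter pairs were not compared, so these values cannot decide it. For TE the replicate block joined the assays of 1 culture and gave 260. The cause of these shifts was not tested. Footprint depth was lower in E02H1.1 than in C27F2.4, which limits what could be called among rare footprints.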

Other observations

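The chromosomes of the called genes were counted, with no test. In mRNA, the X chromosome held 15.5% of the 13283 tested genes with a known place, 35 of the 214 genes higher in E02H1.1 than in C27F2.4, and 13 of the 223 lower genes (5.83%). Chromosome II held 17.7% of tested genes, 24 of the higher and 50 of the lower genes, and chromosome V held 19.2%, 54 and 44. In footprints, X held 15.1% of the 10477 placed genes, 13 of the 65 higher and 7 of the 65 lower genes, and chromosome II held 17.4%, 7 and 9. The share of lower genes on chromosome II was above its share of tested genes in mRNA (22.4%) and below it in footprints (13.8%). Neighbouring genes are not independent.

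C-type lectins, many of them secreted proteins of the gut, gave 5 higher and 2 lower genes of 90 tested in mRNA. Of all genes, 1.63% were called higher and 1.64% lower. The lectin counts were 6 and 6 without C27F2.4 A, against 806 and 907 of all 13762 genes. They were 6 and 4 without Empty_vector C, against 560 and 525 of all 13778 genes. They were 3 and 1 without C27F2.4 B, C or D or E02H1.1 A. They were 2 and 1 without E02H1.1 B, and 3 and 0 without E02H1.1 D. The higher ones included clec-52 (1.58) and clec-5 (1.17), both chosen after their values were seen. clec-5 averaged 7.76 ± 0.980 CPM in E02H1.1, 3.44 ± 0.916 CPM in C27F2.4 and 2.94 ± 0.535 CPM in Empty_vector (SD, n = 4 each, edgeR adjusted p = 0.000731). Of 187 nuclear hormone receptors tested in mRNA, 7 were higher and none lower, against 1.63% of all genes called higher; nhr-82 (1.97) and nhr-81 (1.47) had the largest fold changes. The number higher was 13 without C27F2.4 A and 11 without Empty_vector C, against 806 of all 13762 genes and 560 of 13778. It was 3 without E02H1.1 A or D, 2 without C27F2.4 B and 1 without C27F2.4 D or E02H1.1 B. The antimicrobial peptide gene cnc-4 was higher in both assays (0.71 in mRNA and 0.58 in footprints), and each call was lost on leaving out any 1 of several libraries (6 in mRNA and 9 in footprints). Among 83 genes of histone methylation, rbbp-5, a subunit of complexes that methylate histone H3 (-0.30, edgeR adjusted p = 0.0059), prmt-1, an arginine methyltransferase (-0.23, adjusted p = 0.01), and set-4, a methyltransferase of histone H4 (-0.21, adjusted p = 0.024), were lower in mRNA and hda-4, a deacetylase, higher (0.22, adjusted p = 0.017). The number lower was 20 without C27F2.4 A and 8 without Empty_vector C, against 907 of all 13762 genes and 525 of 13778. The call of hda-4 was lost without C27F2.4 D or E02H1.1 B.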
